A study of Mus musculus with 18 samples.

Results

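Stimulation of muscle fibers in the presence of KN62, an inhibitor of signalling by calcium/calmodulin-dependent kinase (CaMK), was followed in 6 of the 18 samples of the series, with an array each. The members were chosen by title: 3 arrays of fibers that received KN62 and slow-pattern electrical stimulation, and 3 arrays of fibers that received KN62 without stimulation. All 6 groups of the series used dissociated single fibers of a short foot muscle, the flexor digitorum brevis or FDB, from CD-1 mice aged 4 to 5 weeks, cultured for 3 days at 37 °C under 5% CO2 in medium with 10% serum and gentamicin at 50 ug/ml. RNA of more than 100 fibers made up a sample. The other groups received KN93, a further inhibitor, or KN92, the inactive control compound, each with and without stimulation. Fibers with no compound are not among the groups, and the doses and the parameters of stimulation are not stated in the labels. Each experiment, numbered 1 to 3, comprised 1 unstimulated and 1 stimulated array with KN62, and the series calls its experiments independent.

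Skeletal muscle fibers tune their contractile and metabolic genes to the pattern of nerve activity. Tonic activity in a slow pattern keeps intracellular calcium raised, and calcium acts on transcription by several routes, among them CaMK, which relieves repression of MEF2 target genes, and the phosphatase calcineurin, which activates NFAT. KN62 and KN93 interfere with activation of CaMK by calmodulin. KN92 is a relative of KN93 without this activity and serves as its control. The title of the series names fiber transformation by electrical stimulation without the CaMK pathway as its subject, and the KN62 arrays read that question with the second inhibitor.

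The array was small. It carried 22 features of 6 spots each, numbered here by their order in the deposited table, and the files used here do not pair the features with genes. No gene or pathway is therefore named, and the tissue markers of FDB fibers were not checked. On every array the sample carried Cy3 and a reference carried Cy5, so that each level below is a log2 ratio of sample over reference after background correction and loess within the array, and each change is the difference of such levels between stimulated and unstimulated fibers. Since the samples are bulk RNA, fewer fibers of a kind and less RNA per fiber cannot be told apart.

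In Cy3, signal strength was of the same order on the 6 arrays. The median Cy3 signal was 1645.5 to 2646 units, and 96 to 111 of the spots of the 22 features lay above their local background in Cy3. The median Cy5 signal of the reference was 3481 and 3104 units on unstimulated and stimulated replicate 1. On the other arrays it was 859 to 1424 units. On an array, a feature was taken as above background if more than 50% of its spots were. By this rule 15 features were above background on 6 of 6 arrays, 3 features (3, 6 and 13) on none, and features 18, 19, 20 and 22 on some. Feature 1 had spots at the top of the scanner range on 5 of the 6 arrays, which compresses its ratio. The 6 spots of a feature differed by a median SD of 0.13 within an array, against a median SD of 0.22 between arrays of a group. For all 15 features the SD between arrays exceeded the error of the spot mean, by a factor of 2.45 or more, so that the number of arrays, not of spots, limited precision.

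Several arrays need a caveat before their values are read. For stimulated replicate 2 the title and source name state stimulation, which was used here, while the treatment text states the opposite. In experiment 3 the deposited table and the scans disagree. The table column of unstimulated replicate 3 followed the scan filed under stimulated replicate 3, with a median absolute difference of 0.05 on the log2 scale, and differed from its own scan by 0.40. The column of stimulated replicate 3 differed from its own scan by 0.64 and correlated with it at -0.72 over cells. The scan it came closest to was that of unstimulated replicate 3 with the ratio turned over, Cy5 over Cy3, at a difference of 0.19. The remaining 4 KN62 columns followed their own scans with differences of 0.05 to 0.10. Scans were kept under their labels, and results are given with and without experiment 3.

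The log2 ratios of stimulated replicate 3 also ran against those of stimulated replicates 1 and 2, with correlations of -0.46 and -0.52 over the 22 features. Its direction is therefore not settled by the ratios alone, and results with its sign turned are given as well. However, the labels put the sample in Cy3 on all arrays, and the deposited table holds this scan as Cy3 over Cy5. The scan turned over there is the one of unstimulated replicate 3. If the labels of the experiment 3 arrays were exchanged, each difference of that experiment would change sign, and changes with exchanged labels were not computed. In experiment 1 the reference channel was unlike that of the other experiments. The quantile-normalized log2 Cy5 signal of feature 2 was 13.25 and 13.91 on the experiment 1 arrays against 10.33 to 11.06 on the remaining 4 KN62 arrays, and its log2 ratios were -2.87 and -2.66 there against -0.10 to 0.33. The arrays of experiment 1 resembled each other closely, with a correlation of 0.92 over the 22 features, or 0.65 over 19 features without 2, 4 and 6. In experiments 2 and 3 the correlation between the paired arrays was 0.26 and -0.39.

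Stimulation in the presence of KN62 moved no feature past the threshold. By limma, 0 of 22 features (0%) had a Benjamini-Hochberg adjusted p under 0.05, and 0 had an unadjusted p under 0.05. Of the 22 changes, 11 were above and 11 below 0. The unadjusted p nearest to the threshold was 0.0525, for feature 14, and the adjusted p of all features lay between 0.927 and 0.942. This fit compared group means and did not pair the arrays of an experiment. With the experiment as a fixed block 0 features were called. Feature 14 then had an unadjusted p of 0.0437 and an adjusted p of 0.920 by limma. The 3 stimulated arrays overlapped the 3 unstimulated arrays for all 22 features, so that 0% were separated. Among the 15 features above background throughout, the median change was 0.06, and 13 changes were smaller than 0.2 in size. Precision was limited: the 95% interval had a median half-width of 0.40 on the log2 scale and stayed within 0.5 of 0 for 7 of the 15 features and within 1 for 13.

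**Figure D1:**
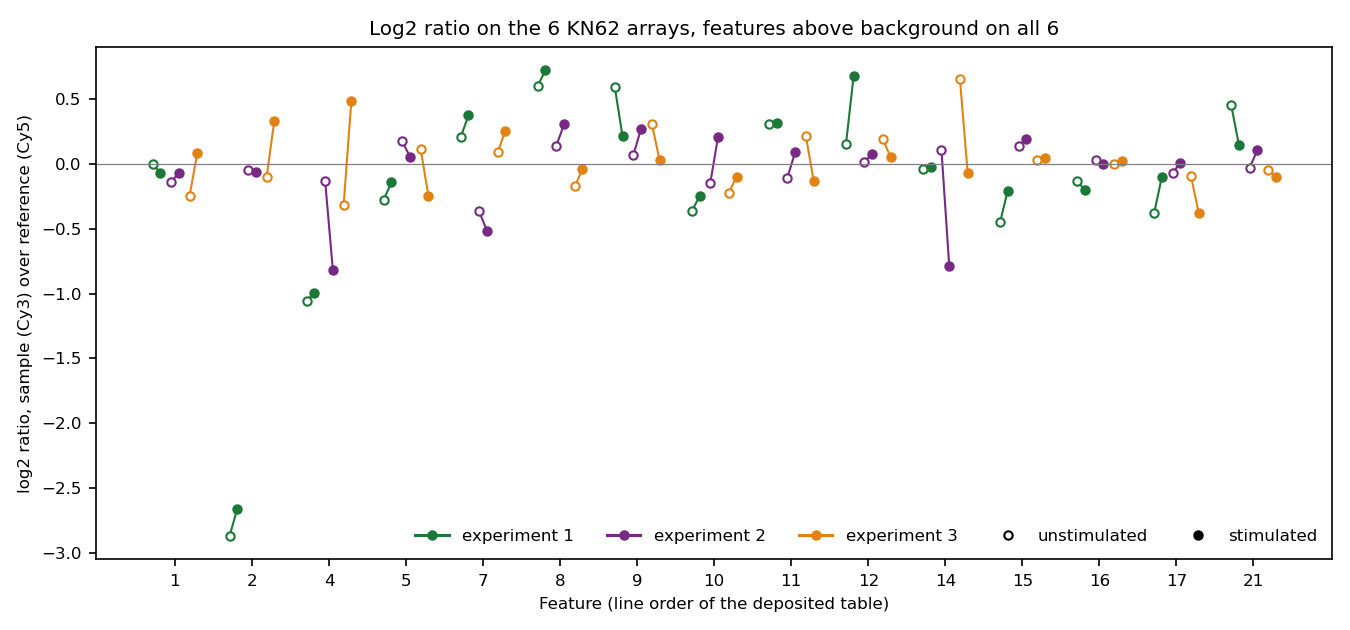
Log2 ratio of sample over reference (vertical axis) for the 15 features above background on all 6 KN62 arrays (horizontal axis). Lines join the unstimulated (open) and stimulated (filled) array of each experiment, shown by colour. Feature 2 lies at -2.87 and -2.66 in experiment 1 and near 0 in the others, and only features 8, 10 and 15 slope upward in all 3 experiments.

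Feature 14 had the lowest change of the 22. Its log2 ratio was -0.04, 0.10 and 0.65 on unstimulated replicates 1, 2 and 3 and -0.02, -0.78 and -0.07 on stimulated replicates 1, 2 and 3. The groups overlapped because experiment 1 showed no difference, whereas the stimulated array was lower by 0.89 in experiment 2 and by 0.72 in experiment 3. The group means were 0.24 ± 0.37 and -0.29 ± 0.43 (SD, n = 3 each), which gives a change of -0.53 (SE 0.25, 95% interval -1.07 to 0.01), with an adjusted p of 0.927 by limma. Without experiment 3 the change was -0.43 (95% interval -1.06 to 0.19), and with the sign of stimulated replicate 3 turned it was -0.48. If the labels of the experiment 3 arrays were exchanged, the stimulated array of that experiment would be higher by 0.72, against the direction of experiment 2. Without stimulated replicate 2, whose labels conflict, the change was -0.28. Without both experiment 3 and stimulated replicate 2, which leaves 1 stimulated array, it was -0.06.

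How the ratio was scaled within the array decided whether experiment 1 took part in this difference. The raw Cy3 signals of feature 14 were 9726, 9137.5 and 8217 units on the unstimulated arrays and 4482.5, 4176.5 and 4943.5 units on the stimulated arrays. All 3 stimulated arrays were lower, and the dimmest unstimulated array was 1.66-fold above the brightest stimulated one. The raw Cy5 signals of the reference were 4743, 3977 and 3634.5 units against 4318.5, 4823 and 3039 units and overlapped. Feature 14 was the 1 feature of 22 (4.55%) whose raw Cy3 signals did not overlap between the groups. The raw Cy5 signals of the reference also separated 1 feature of 22 (4.55%), feature 12, which was higher on the stimulated arrays. The share was thus the same in the reference as in the sample. Raw signals carry the brightness of the whole array, and the median Cy3 signal was itself lower on the stimulated arrays, at 1645.5 to 2317 units against 2057.5 to 2646 units.

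After loess with a wider window (span 0.7 in place of 0.3), feature 14 was lower on the stimulated array by 0.76, 0.85 and 0.51 in experiments 1, 2 and 3. The log2 ratios were then 0.67, 0.17 and 0.66 unstimulated and -0.09, -0.68 and 0.15 stimulated. The groups did not overlap, which held for 1 of 22 features (4.55%) at that setting. Under median centring the experiments gave -0.72, -1.09 and -0.12, and without normalization within the array -1.02, -1.26 and -0.48. Both settings thus kept the direction in all 3 experiments, but under median centring the groups overlapped, and 1 other feature of 22 (4.55%), feature 15, was separated. Without normalization 2 of 22 features (9.09%) were separated, 12 and 14, and the median change of the 15 features moved to -0.24, so that feature 14 lay 0.69 below it. In quantile-normalized Cy3 signal alone the differences were -0.23, -0.41 and -0.67, but the groups overlapped, and feature 16 was the 1 feature of 22 (4.55%) that was separated. In the Cy5 signal of the reference they were -0.34, 0.48 and 0.31, so that in experiment 1 the reference was lower by more than the sample. Plain background subtraction with loess of span 0.3 gave 0.03, -0.81 and -0.76, again with no decrease in experiment 1. None of the settings tried passed the threshold: the adjusted p of feature 14 by limma was 0.750 with the wider window, 0.999 under median centring and 0.317 without normalization, and it ranged from 0.0911, with the image folder as a block, to 0.999 over all alternatives tried.

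**Figure D2:**
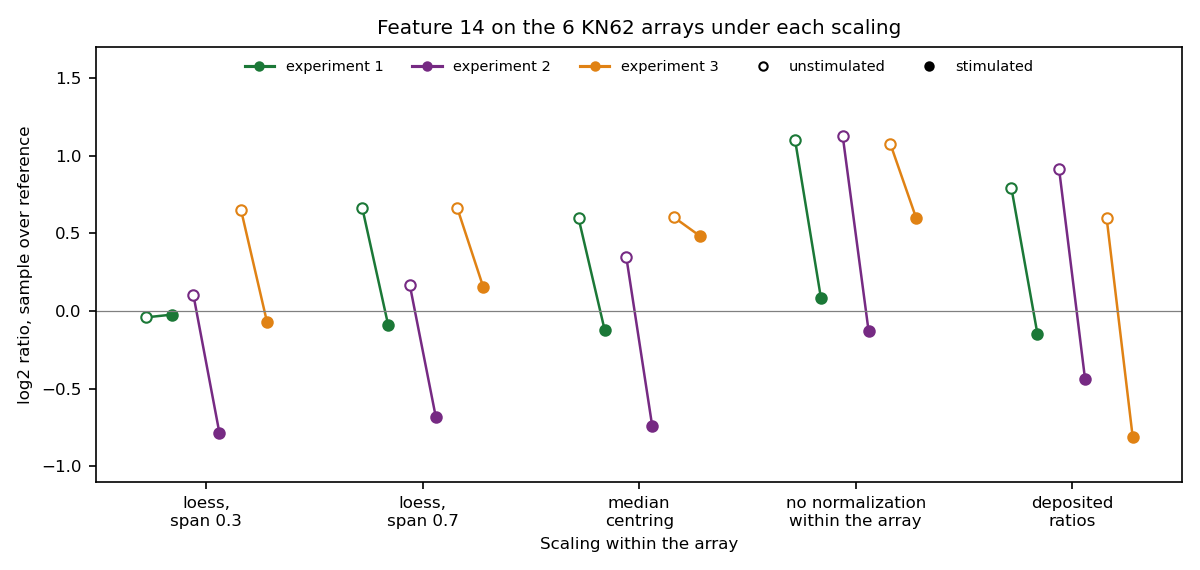
Log2 ratio of feature 14 (vertical axis) on the 6 KN62 arrays under 5 scalings (horizontal axis), with unstimulated arrays open, stimulated arrays filled and 1 colour per experiment. The stimulated array is the lower one in 3 of 3 experiments under 4 of the 5 scalings plotted and in experiments 2 and 3 under loess with span 0.3, where experiment 1 lies at -0.04 and -0.02. Plain subtraction with the same loess, not plotted, gave 0.03 in experiment 1.

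In the authors' deposited table feature 14 was the lowest of the 15 features above background throughout. Its deposited ratio, on the log2 scale, was 0.79, 0.91 and 0.60 for the unstimulated columns and -0.15, -0.44 and -0.81 for the stimulated columns. The differences were -0.94, -1.35 and -1.41, and their mean of -1.23 was the lowest of the 15 features (adjusted p 0.164 by limma). Features 9 and 14 were the 2 of 15 features (13.3%) whose deposited columns did not overlap. The columns of experiment 3 do not follow their scans, and experiments 1 and 2 alone gave a mean of -1.14. In experiment 1 the deposited difference of -0.94 stands beside 0.02 from the scans after loess with span 0.3 and -0.76 after loess with span 0.7.

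**Figure D3:**
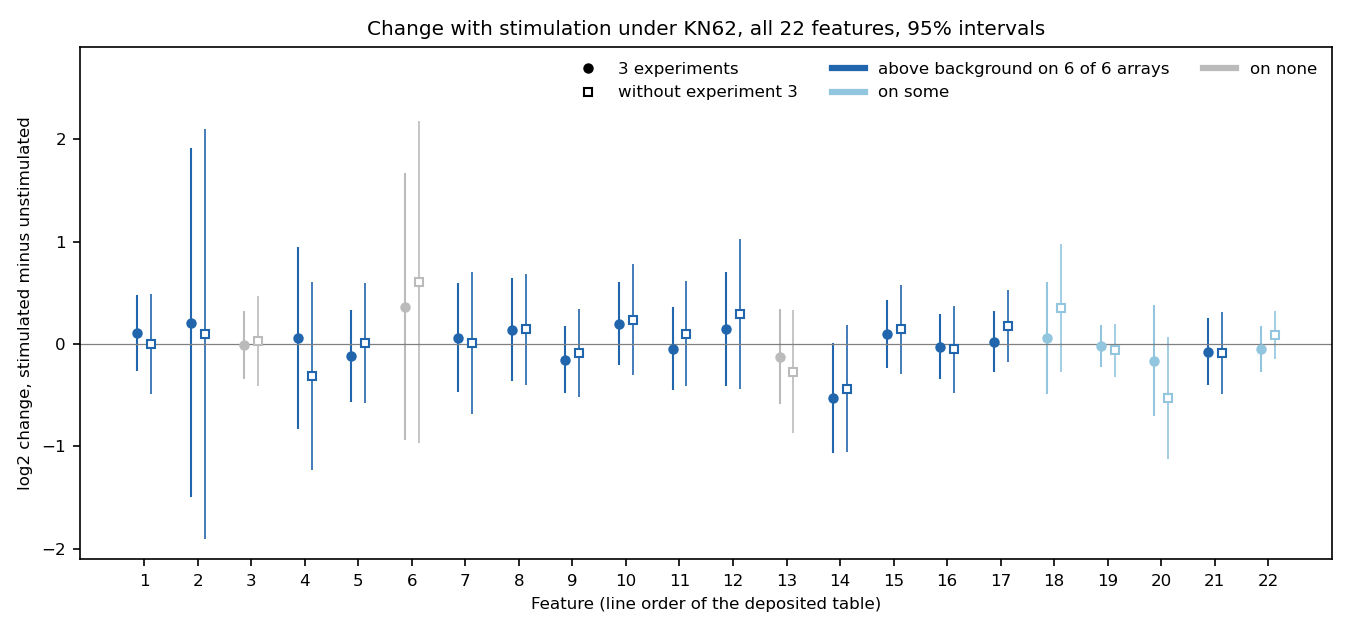
Log2 change, stimulated minus unstimulated with KN62 (vertical axis), for all 22 features (horizontal axis), with 95% intervals from limma. Circles use 3 experiments and squares leave out experiment 3, and colour gives the number of arrays above background. All 22 intervals from 3 experiments include 0, and that of feature 14 ends at 0.01.

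After loess with span 0.3, features 8, 10 and 15 were higher on the stimulated array in every experiment, and their changes were small. Feature 10 had log2 ratios of -0.37, -0.14 and -0.22 unstimulated and -0.25, 0.21 and -0.10 stimulated. Each stimulated array lay above its own partner, by 0.12, 0.35 and 0.13, but the groups overlapped. Its change was 0.20 (SE 0.19, 95% interval -0.20 to 0.60, adjusted p 0.927 by limma) and stayed above 0 under each alternative tried, between 0.01 and 0.35.

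Feature 8 was at 0.60, 0.14 and -0.17 unstimulated and at 0.72, 0.31 and -0.04 stimulated. The experiments lay far apart and the stimulation differences did not, at 0.12, 0.17 and 0.13, so that the change was 0.14 (SE 0.23). Its experiments differed by an SD of 0.03, the narrowest of the 15 features, but in Cy3 alone its mean difference was -0.24, and the direction turned. Feature 15 was at -0.45, 0.14 and 0.03 unstimulated and at -0.21, 0.19 and 0.04 stimulated, with differences of 0.25, 0.05 and 0.02 and a change of 0.10 (SE 0.15). Without experiment 3 the changes of features 8, 10 and 15 were 0.14, 0.24 and 0.15. With the sign of stimulated replicate 3 turned they were 0.17, 0.26 and 0.07, and feature 15 was then lower on the stimulated array of experiment 3. If the labels of the experiment 3 arrays were exchanged, features 8, 10 and 15 would each be lower on the stimulated array of that experiment. Which features differed in the same direction in all 3 experiments depended on the scaling. With span 0.3 features 8, 10 and 15 were higher. With span 0.7 feature 10 was higher and feature 14 lower. Under median centring features 1, 10 and 15 were higher and 14 lower. Without normalization features 5, 12, 14 and 17 were lower. Plain subtraction with loess left features 8 and 15 higher, with feature 10 at -0.05 in experiment 1. In the deposited ratios features 1 and 17 were higher and 4, 5, 7, 9, 12 and 14 lower, with feature 10 at -0.33 in experiment 3.

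The other features with large changes owed them to 1 or 2 experiments. Feature 2 had a change of 0.21 (SE 0.79), the highest of those above background on the labelled direction, with log2 ratios of -2.87, -0.05 and -0.10 unstimulated and -2.66, -0.07 and 0.33 stimulated. Its interval of -1.49 to 1.91 was the widest of the 15, since both arrays of experiment 1 lay far below the rest. With the sign of stimulated replicate 3 turned the change was -0.01, below the 0.26 of feature 10. Compared within experiments, with the experiment as a replicate block, the same change of 0.21 had an interval of -0.09 to 0.51.

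Feature 12 was at 0.15, 0.02 and 0.19 unstimulated and at 0.68, 0.08 and 0.05 stimulated. The high value was on stimulated replicate 1, and the change of 0.15 (SE 0.26) became -0.06 without that array. Feature 9 was at 0.59, 0.07 and 0.31 unstimulated and at 0.21, 0.27 and 0.03 stimulated, a change of -0.15 (SE 0.15). It was lower in experiments 1 and 3 and higher by 0.20 in experiment 2, and the change was -0.09 without experiment 3.

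For feature 4 the experiments disagreed in sign and size. Its log2 ratio was -1.06, -0.13 and -0.32 unstimulated and -0.99, -0.82 and 0.49 stimulated, and the differences of 0.06, -0.69 and 0.80 left a change of 0.06 (SE 0.41). Without experiment 3 the change was -0.31, with the sign of stimulated replicate 3 turned it was -0.26, and from the deposited table it was -1.15, or -0.75 without the columns of experiment 3. Feature 20, above background on 1 array of each group, was at 0.07, 0.20 and -0.26 unstimulated and at -0.64, -0.16 and 0.30 stimulated. Its change of -0.17 (SE 0.25) became -0.53 (95% interval -1.13 to 0.06) without experiment 3, where it was lower in both remaining experiments. Feature 18, above background on 2 unstimulated and 3 stimulated arrays, likewise went from 0.06 to 0.35 when experiment 3 was left out.

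After loess with span 0.3, the remaining features above background on every KN62 array stayed within 0.12 of 0. The changes were 0.11 for feature 1, -0.12 for feature 5, 0.06 for feature 7, -0.05 for feature 11, -0.02 for feature 16, 0.02 for feature 17 and -0.07 for feature 21. Their SE ran from 0.14 for feature 17 to 0.25 for feature 7. Features 19 and 22, measured above background on 2 arrays of each group and on 1 unstimulated array, had changes of -0.02 and -0.05. Features 3, 6 and 13 did not rise above background on the 6 arrays, and their ratios say nothing about a level. Without experiment 3 the 22-feature fit called 0 features, with 0 at an unadjusted p under 0.05.

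The experiments did not share a pattern across features. Over the 15 features the differences of experiments 1 and 2 correlated at -0.05, those of experiments 1 and 3 at 0.08 and those of experiments 2 and 3 at 0.01, a description over 15 features of the same arrays. The sign was shared by 7, 8 and 6 of the 15 features in these pairs. The size also differed: the median absolute difference was 0.13 in experiments 1 and 2 and 0.28 in experiment 3, the pair whose columns and scans disagree. The 2 channels moved together within an experiment. Stimulated minus unstimulated, the quantile-normalized Cy3 and Cy5 signals of the 15 features differed by an SD of 0.51 and 0.52 in experiment 1, 0.41 and 0.36 in experiment 2 and 0.51 and 0.38 in experiment 3, with correlations between the channels of 0.65, 0.46 and 0.49. The reference channel thus varied between the paired arrays to a degree close to that of the sample channel.

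**Figure D4:**
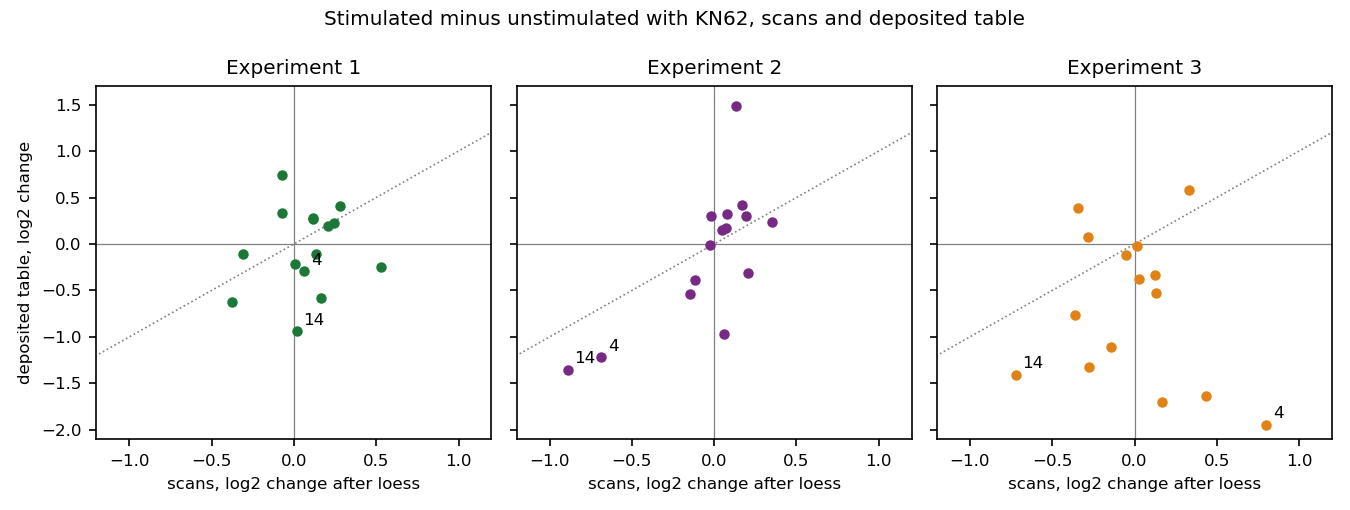
Stimulated minus unstimulated difference in log2 ratio from the deposited table (vertical axis) against the same difference from the scans after loess with span 0.3 (horizontal axis), for the 15 features in each experiment, with the dotted line of equality. The sign is shared by 7 features in experiment 1, 12 in experiment 2 and 6 in experiment 3, where feature 4 lies at 0.80 from the scans and -1.95 from the table.

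The deposited ratios and the scans gave the same sign for 7 of the 15 features in experiment 1, 12 in experiment 2 and 6 in experiment 3. In experiments 1 and 2 the columns follow the scans, but how the table's ratios were corrected for background and scaled is not given in the sources used here, and some of its cells are empty, so this is no comparison of scalings alone. Tested in limma on the log2 scale, the deposited ratios called 0 features, with 2 at an unadjusted p under 0.05, and 0 features without the columns in doubt, with 1 at an unadjusted p under 0.05.

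The scanned images were stored in folders, which were used here as blocks. Whether the folders mark batches is not known. The arrays of experiment 2 were in the same image folder and the other 4 KN62 arrays in a folder each, so that the within-folder value of a KN62 change is the difference of experiment 2. For feature 14 that value was -0.89, for feature 10 it was 0.35, for feature 9 it was 0.20 and for feature 4 it was -0.69. Blocking on the image folder, the fit again called 0 features, and feature 14 had an adjusted p of 0.0911 by limma. For KN62 this fit sets 1 stimulated against 1 unstimulated array, with the spread taken from the other groups. The stimulated one is replicate 2, whose treatment text states no stimulation. Without that array the change of feature 14 in the fit with no block was -0.28.

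Whether the response under KN62 differed from that under the inactive compound was tested as a difference of stimulation effects. No feature passed: by limma 0 of 22 (0%) were called in KN62 minus KN92, 0 had an unadjusted p under 0.05, and the lowest adjusted p was 0.994. The intervals were wide, with a median half-width of 0.60 over 18 features. Feature 14 was at -0.63, 0.25 and 0.01 in unstimulated and at -0.48, -0.63 and -0.29 in stimulated KN92 fibers. Its change of -0.34 with KN92 stands beside -0.53 with KN62, and the difference was -0.19 (95% interval -0.95 to 0.57). The direction with KN62 was thus not shown to be particular to the inhibitor. For features 8 and 10 the change was 0.52 and 0.33 with KN92 against 0.14 and 0.20 with KN62, differences of -0.38 (-1.09 to 0.33) and -0.13 (-0.70 to 0.44).

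Against KN93, the other inhibitor, 0 of 22 features (0%) were called by limma, and 1 reached an unadjusted p under 0.05. This was feature 7, with a change of 0.06 with KN62 and -0.79 with KN93, a difference of 0.85 (95% interval 0.06 to 1.65, adjusted p 0.820). On the KN62 arrays it was at 0.21, -0.37 and 0.09 unstimulated and 0.37, -0.52 and 0.26 stimulated, and each stimulated array stayed within 0.17 of its partner. On the KN93 arrays it was at 0.15, 0.21 and 0.37 unstimulated and at -0.13 and -0.97 stimulated, with 2 stimulated values because 2 scans of that group are of the same array. Without the 4 arrays on which feature 2 is bright in the reference, among them stimulated KN93 replicate 3 and the pair of experiment 1 with KN62, the difference was 0.32 (-0.52 to 1.16). That fit keeps 1 stimulated KN93 array, whose spread was taken from the rest of the arrays. Without stimulated KN62 replicate 2, whose labels conflict, the difference was 1.13 (adjusted p 0.085 by limma), and without all arrays in doubt feature 7 was called, with an adjusted p of 0.0216 by limma from 1 stimulated array of each inhibitor, both among those with the bright reference. For feature 14 the change was -0.12 with KN93, and the difference of KN62 minus KN93 was -0.41 (-1.21 to 0.40). This interval includes differences between the inhibitors in either direction.

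**Figure D5:**
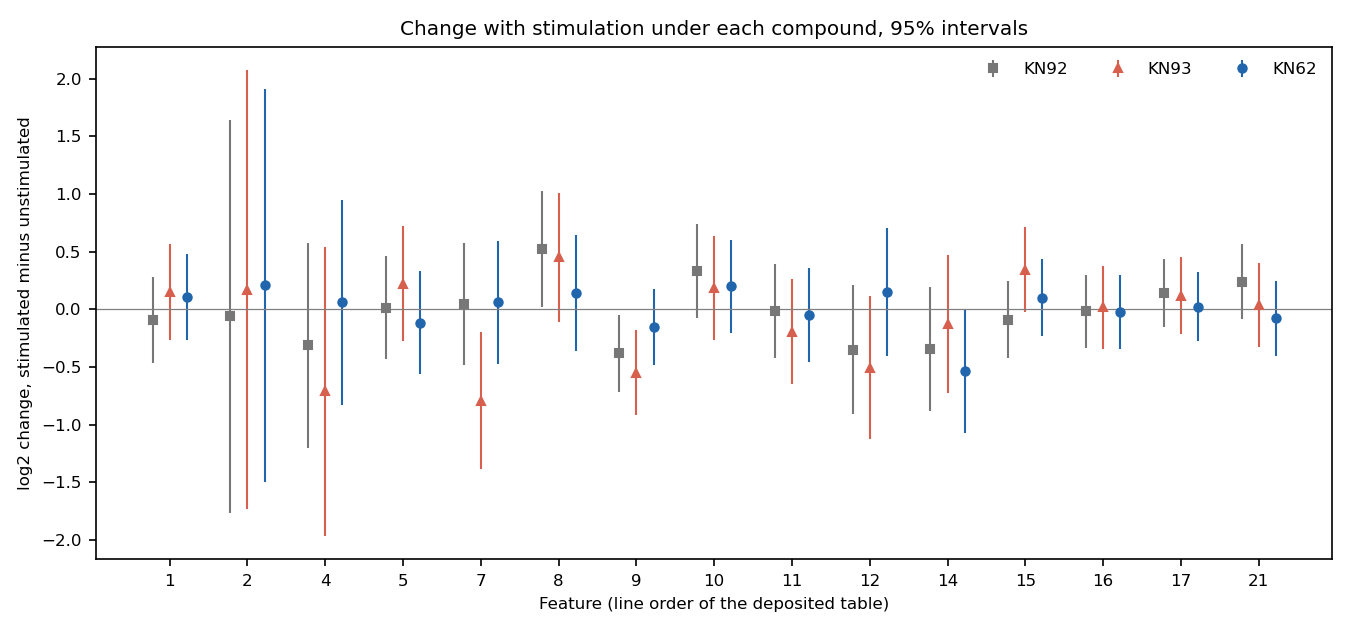
Log2 change, stimulated minus unstimulated (vertical axis), with KN92, KN93 and KN62 for the 15 features above background on all KN62 arrays (horizontal axis), with 95% intervals from limma. The intervals of the 3 compounds overlap for each of the 15 features, and feature 7 with KN93 lies lowest at -0.79.

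Stimulated fibers were also compared directly. In stimulated KN62 minus stimulated KN92, 0 of 22 features (0%) were called by limma, and 2 reached an unadjusted p under 0.05, features 9 and 12. Feature 9 was at 0.21, 0.27 and 0.03 with KN62 and at -0.37, -0.12 and -0.29 with KN92. All 3 arrays with KN62 were higher, by 0.43 on average (95% interval 0.10 to 0.76, adjusted p 0.314). Feature 12 was at 0.68, 0.08 and 0.05 against -0.65, -0.19 and -0.25, higher by 0.63 (0.08 to 1.19, adjusted p 0.314), and the groups did not overlap either. In all, 4 of 22 features (18.2%) did not overlap, features 9 and 12 higher and features 16 and 22 lower with KN62. In unstimulated fibers the means with KN62 and KN92 were 0.32 and 0.12 for feature 9 and 0.12 and -0.02 for feature 12. The difference of stimulation effects, KN62 minus KN92, was 0.23 (-0.24 to 0.70) for feature 9 and 0.50 (-0.29 to 1.28) for feature 12.

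Between stimulated fibers the difference in feature 9 was of similar size under several other choices. It was 0.41 with loess of span 0.7, 0.47 under median centring and 0.50 without experiment 3 of KN62. Without stimulated KN62 replicate 2, whose labels conflict, it was 0.38. Feature 12 was at 0.50, 0.43, 0.74 and 0.73 in these. The difference of stimulation effects, KN62 minus KN92, was smaller with span 0.7, at 0.15 for feature 9 and 0.26 for feature 12. Under median centring it was 0.17 and 0.26. Compound and experiment cannot be told apart in the comparison of stimulated fibers. The titles number the experiments of each compound separately and do not say whether stimulated arrays of different compounds shared an experiment.

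In stimulated KN62 minus stimulated KN93, 0 of 22 features (0%) were called by limma, and 0 reached an unadjusted p under 0.05. Feature 9 differed by 0.35 (-0.02 to 0.72), feature 12 by 0.25 (-0.38 to 0.87), feature 14 by -0.45 (-1.05 to 0.15) and feature 7 by 0.59 (-0.01 to 1.18). For feature 7 the difference was 0.92 under median centring and 0.86 without stimulated KN62 replicate 2 (adjusted p 0.475 and 0.094 by limma). It was 0.002 without the 4 arrays with the bright reference, a fit that keeps 1 stimulated KN93 array. Without all arrays in doubt feature 7 was called here too, with an adjusted p of 0.0285 by limma, again from 1 stimulated array of each inhibitor.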

How the data were processed

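Spot values in the scanner files are intensity on a linear scale with local background medians, per the file headers quantified with software version 5.5, for 144 spots in each channel. The table deposited by the authors gives, per spot of the 22 features, sample over reference as a linear ratio, and how each array's factor was set is not known. The KN62 arrays account for 12 of the 36 scanner files. Spots were corrected with normexp (offset 50), and log2 Cy3 over Cy5 was normalized by loess (span 0.3) within the array in limma 3.58.1 under R 4.3.3, with no weight for the 12 spots outside the 22 features. Spots were averaged per feature. All 17 arrays (2 scans of stimulated KN93 fibers are of the same array, with the grid moved 1 column, and were averaged) entered a model of 6 group means with eBayes, adjusted by Benjamini-Hochberg over 22 features. The code was tested on simulated data.

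The members and lists were chosen with earlier results of these data known. Gene and marker lists matched 0 features. The replicate numbers pair the arrays: the titles set both arrays of an experiment in the same comparison, and their deviations from the group means correlated at 0.88, 0.67 and 0.57 in experiments 1, 2 and 3, or at 0.39, 0.52 and 0.02 without features 2, 4 and 6. Arrays of different experiments correlated at up to 0.72, so the pairing rests on the titles. Values on every array were given for features with the same direction in all 3 experiments and for the 3 highest and 3 lowest changes among features above background in both groups. Features 4 and 7 were added after their values were seen. The comparison of scalings by experiment was chosen after the values were seen, although the scalings themselves were planned.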

Additional observations from a re-analysis of the deposited data

How the results depend on the processing

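The count of called features for KN62 stimulation was 0 in all 29 alternatives tried, the replicate block among them: with each experiment as a fixed block 0 features were called, and feature 14 had an unadjusted p of 0.0437 and an adjusted p of 0.920 by limma. Leaving out 1 array at a time gave counts of 0 to 0 in each of the 5 comparisons. The counts for KN62 minus KN92 effects (34 alternatives) and for stimulated KN62 minus stimulated KN92 (25 alternatives) also stayed at 0. Without all arrays in doubt, which leaves 1 array each of stimulated KN93 and stimulated KN62 fibers that are assumed to vary like the other groups, 1 feature was called in KN62 minus KN93 effects and 1 in stimulated KN62 minus stimulated KN93. It was feature 7 in both, with an adjusted p of 0.0216 and 0.0285 by limma. Direct comparisons of stimulated fibers have no value under fixed blocks, since the blocks were set within each compound. Of 622 values of single features under alternatives, 61 moved by 1 SD between replicates or more. With 1 array left out, feature 14 ranged from -0.67 to -0.28, feature 10 from 0.07 to 0.30 and feature 2 from -0.72 to 1.14. Signal over background limits features 3, 6, 13, 18, 19, 20 and 22, and 3 arrays a side limit all others.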

Other observations

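The 12 spots outside the 22 features were not used in any comparison. On the 6 KN62 arrays, 8 to 12 of them lay above their local background in Cy3. The 3 in the last grid column had a median Cy3 signal of 1547 to 4476.5 units, the highest on stimulated replicate 2.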
